A study of Rattus norvegicus with 8 samples.

Results

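The thalamus, the relay station of the diencephalon, lies dorsal and rostral to the *substantia nigra* (SN), and 10 genes that mark its neurons were followed in RNA from the SN: *Tcf7l2*, *Lef1*, *Gbx2*, *Lhx2*, *Lhx9*, *Rora*, *Prkcd*, *Plekhg1*, *Calb2* and *Synpo2*. They were chosen by name, with earlier results of these data known. Every probe on the array whose RefSeq accession belongs to one of these rat genes was taken. That gave 13 probes for 8 of the 10 genes, among 16678 genes named by a probe in all, and 7 of the 8 were above background and tested, among 13644 such genes. *Tcf7l2* and *Rora* were matched to no probe through the table of accessions and were not analysed here. 6 of the 7 genes tested were lower on average in the AAV-αSyn group, by up to 2.00 on the log2 scale (*Gbx2*), and *Lhx9* did not differ beyond its error. No member passed the adjustment for all probes, and in every one the arrays of the 2 groups overlapped.

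The arrays compare adult female Sprague–Dawley rats, operated at 3 months of age, that received a unilateral injection into the SN of an AAV6 vector. The AAV-αSyn vector carried wild-type human α-synuclein at 5.2e+10 vector genomes per µL, and the AAV-Null vector, its control, was given at 5.3e+09, so that the transgene and the titre cannot be told apart. The promoter of the vectors is not given in the sources used here. The SN of the injected side was dissected 20 weeks after surgery, and RNA of each sample was hybridised to its own array, with 4 arrays per group, where the study's methods speak of 3 biological replicates. P-values measure the spread between these samples. Dissected tissue is a mixture, and in it fewer cells of a type and less RNA per cell cannot be told apart. The dopaminergic markers of the labelled tissue were present on all arrays, with *Th*, which encodes tyrosine hydroxylase, at a log2 intensity between 15.88 and 16.70.

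Thalamic neurons acquire and keep their identity through a set of transcription factors. TCF7L2 and LEF1 are the DNA-binding partners of β-catenin in the Wnt pathway, GBX2 is a homeodomain protein of thalamic precursors and their postmitotic neurons, LHX2 and LHX9 are LIM-homeodomain proteins that regulate the differentiation of these neurons, and RORα is a nuclear receptor of thalamic projection neurons. PRKCD, the delta form of protein kinase C, is abundant in adult thalamic relay neurons. None of these genes belongs to the thalamus alone, and *Calb2*, which encodes the calcium-binding protein calretinin, is also made by neurons of the ventral midbrain.

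The 3 highest arrays came in the same order in *Gbx2*, *Prkcd*, *Lef1* and *Plekhg1*. The upstream sequences of the first 3, the tested members with the largest differences, are shown. Each is the 250 bases before the RefSeq start of the gene in the rat assembly GRCr8, 5′ to 3′ on the strand of the gene: chr9:97959884-97960133 on the minus strand for *Gbx2*, chr16:5805840-5806089 on the minus strand for *Prkcd* and chr2:222340463-222340712 on the plus strand for *Lef1*. Capitals mark any match, on either strand, to the GC box GGGCGG, the TATA box TATAAA, the CCAAT box CCAAT, the TCF/LEF core CTTTGA or the homeodomain core TAATTA.
Gbx2: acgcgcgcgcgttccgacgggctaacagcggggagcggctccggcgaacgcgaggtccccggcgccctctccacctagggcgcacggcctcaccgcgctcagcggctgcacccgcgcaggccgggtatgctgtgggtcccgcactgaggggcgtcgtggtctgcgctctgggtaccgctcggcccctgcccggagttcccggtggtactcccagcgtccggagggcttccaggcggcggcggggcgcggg
Prkcd: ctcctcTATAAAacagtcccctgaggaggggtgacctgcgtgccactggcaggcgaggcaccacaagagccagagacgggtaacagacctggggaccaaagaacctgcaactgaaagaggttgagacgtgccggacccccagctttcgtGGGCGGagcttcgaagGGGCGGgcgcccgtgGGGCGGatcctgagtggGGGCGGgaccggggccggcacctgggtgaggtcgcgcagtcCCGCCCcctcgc
Lef1: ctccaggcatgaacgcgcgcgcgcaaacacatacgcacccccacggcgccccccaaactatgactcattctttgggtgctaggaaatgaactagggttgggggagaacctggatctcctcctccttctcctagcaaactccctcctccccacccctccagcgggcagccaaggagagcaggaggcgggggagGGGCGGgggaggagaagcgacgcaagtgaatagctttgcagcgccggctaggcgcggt
The window of *Prkcd* held 5 GC boxes and 1 TATA box, that of *Lef1* held 1 GC box, and that of *Gbx2* held none of the 5 motifs. Of 33469 rat upstream windows of this length, 30.5% held a GC box, 12.9% a TATA box and 34.0% a CCAAT box. The TCF/LEF core was in 13.9% of all windows and the homeodomain core in 4.86%, and neither was in any of these 3. A match is a description of letters, and its absence says only that these letters are not in this window. G and C made up 76.4% of the *Gbx2* window, 67.6% of the *Prkcd* window and 63.2% of the *Lef1* window. The median over all windows was 51.2%. The *Plekhg1* window, not shown, held none of the 5 motifs and had 52.0% G and C. Of the 10 genes, 8 had such a window, *Lhx9* and *Calb2* being without an entry in the table.

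Levels are given as quantile-normalized log2 intensity, on which 1 unit is a doubling of the spot's brightness, and the level of a probe cannot be ranked against that of another. *Gbx2* had the largest difference. On its brighter probe (A_43_P11061) the AAV-Null arrays 1 to 4 gave a log2 intensity of 9.75, 10.47, 11.20 and 10.35, and the AAV-αSyn arrays 1 to 4 gave 8.69, 9.89, 9.47 and 5.71. AAV-αSyn array 4 was thus far below the rest, and AAV-αSyn array 2 lay just above the lowest AAV-Null array, so that the groups overlapped by 1 array on each side. The means were 10.44 ± 0.60 (SD, n = 4) in AAV-Null and 8.44 ± 1.88 (SD, n = 4) in AAV-αSyn, which differ by a log2 fold change of -2.00 (SE 0.85, 95% interval -3.96 to -0.04). Limma's unadjusted p was 0.0463 and its adjusted p 0.875, and the exact two-sided permutation test over the arrays gave p = 0.0571, where 0.0286 is the smallest this design allows. Leaving out AAV-αSyn array 4 moved the log2 fold change to -1.09, with an unadjusted limma p of 0.0252. The dimmer *Gbx2* probe (A_64_P157066) had log2 intensities of 6.03, 6.94, 7.85 and 6.98 in AAV-Null and of 5.12, 6.62, 6.14 and 1.49 in AAV-αSyn, the last of them not well above background. AAV-Null array 3 was again the highest and AAV-αSyn array 4 the lowest, while both AAV-αSyn arrays 2 and 3 lay above the lowest AAV-Null array. Its log2 fold change was -2.11 (SE 1.05) with an unadjusted limma p of 0.0792.

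*Lef1*, the only tested member that is a transcription factor of the Wnt pathway, showed a wide spread of the AAV-Null arrays and a narrow AAV-αSyn group. Its log2 intensity was 8.02, 9.26, 10.19 and 9.16 on AAV-Null arrays 1 to 4 and 8.20, 8.69, 8.52 and 8.18 on AAV-αSyn arrays 1 to 4. AAV-Null arrays 2, 3 and 4 were above every AAV-αSyn array, while AAV-Null array 1 was the lowest of all 8. The log2 fold change was -0.76 (SE 0.40), with a limma p of 0.0937, an adjusted p of 0.927 and an exact permutation p of 0.171. Without AAV-Null array 1 it was -1.14 with an unadjusted limma p of 0.0037, and without AAV-Null array 3 it was -0.42 with a p of 0.231, so that either array decided the value.

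The LIM-homeodomain genes differed from each other. *Lhx2* gave a log2 intensity of 8.03, 8.29, 8.41 and 8.80 in AAV-Null and of 7.81, 8.48, 7.75 and 7.30 in AAV-αSyn, where 3 of the 4 arrays lay below the lowest AAV-Null array and array 2 lay above 3 of them. Its log2 fold change was -0.55 (SE 0.26), with a limma p of 0.0641 and an adjusted p of 0.907. With 1 array left out it ran from -0.76, without AAV-αSyn array 2 (unadjusted limma p 0.00736), to -0.37, without AAV-αSyn array 4 (p 0.161), and the p was under 0.05 also without AAV-Null array 1. *Lhx9* on its brightest probe (A_64_P026447) gave 8.10, 8.27, 8.49 and 7.91 against 8.03, 8.64, 8.09 and 8.10, and the groups lay over each other. Its log2 fold change was 0.02 (SE 0.17, 95% interval -0.37 to 0.42), with a limma p of 0.899. Of the dimmer *Lhx9* probes, A_44_P1111978 gave -0.10 (SE 0.18), and A_44_P1086440, well above background on 2 AAV-Null and 3 AAV-αSyn arrays, gave 0.58 (SE 0.56).

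Among the signalling genes, *Prkcd*, the protein kinase, had the lowest unadjusted p of the 7 members. On its brighter probe (A_44_P451071) the log2 intensity was 10.96, 12.94, 13.54 and 12.48 on AAV-Null arrays 1 to 4 and 10.65, 11.58, 11.21 and 10.22 on AAV-αSyn arrays 1 to 4. AAV-Null arrays 2, 3 and 4 stood above all AAV-αSyn arrays, and AAV-Null array 1 sat within their range. The means were 12.48 ± 1.1 (SD, n = 4) in AAV-Null and 10.91 ± 0.60 (SD, n = 4) in AAV-αSyn, which differ by a log2 fold change of -1.56 (SE 0.54, 95% interval -2.81 to -0.31), which is 2.96-fold lower in AAV-αSyn. Limma gave an adjusted p of 0.784 (0.0204 before adjustment), and exact permutation of the arrays gave 0.0857. The dimmer probe (A_44_P1159333) gave -1.71 (SE 0.69), with an unadjusted limma p of 0.0381.

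*Plekhg1* encodes a guanine nucleotide exchange factor with a pleckstrin homology domain. Its log2 intensity was 7.65, 8.21, 8.78 and 7.93 in AAV-Null and 7.79, 7.54, 7.49 and 7.12 in AAV-αSyn, again with AAV-Null array 1 inside the AAV-αSyn range and the other 3 above it. The log2 fold change was -0.66 (SE 0.25, 95% interval -1.22 to -0.09), with a limma p of 0.0282, an adjusted p of 0.835 and an exact permutation p of 0.0571.

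*Calb2* was read by 2 bright probes. On the brighter one (A_42_P698310, 10 spots per array) the AAV-Null arrays gave 15.33, 15.37, 15.25 and 15.56 and the AAV-αSyn arrays gave 14.73, 15.14, 15.44 and 14.98. Here 3 AAV-αSyn arrays were below the lowest AAV-Null array and AAV-αSyn array 3 was among the highest of all, a different order from that of *Gbx2*, *Prkcd* and *Lef1*. The log2 fold change was -0.30 (SE 0.15), with a limma p of 0.0797 and an adjusted p of 0.920, and the other probe gave -0.28 with a limma p of 0.0983. Without AAV-αSyn array 1 it was -0.19, and without AAV-αSyn array 3 it was -0.43 with an unadjusted limma p of 0.0125. *Synpo2*, which encodes an actin-binding protein, was well above background on 0 of the 8 arrays and was not tested.

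**Figure D1:**
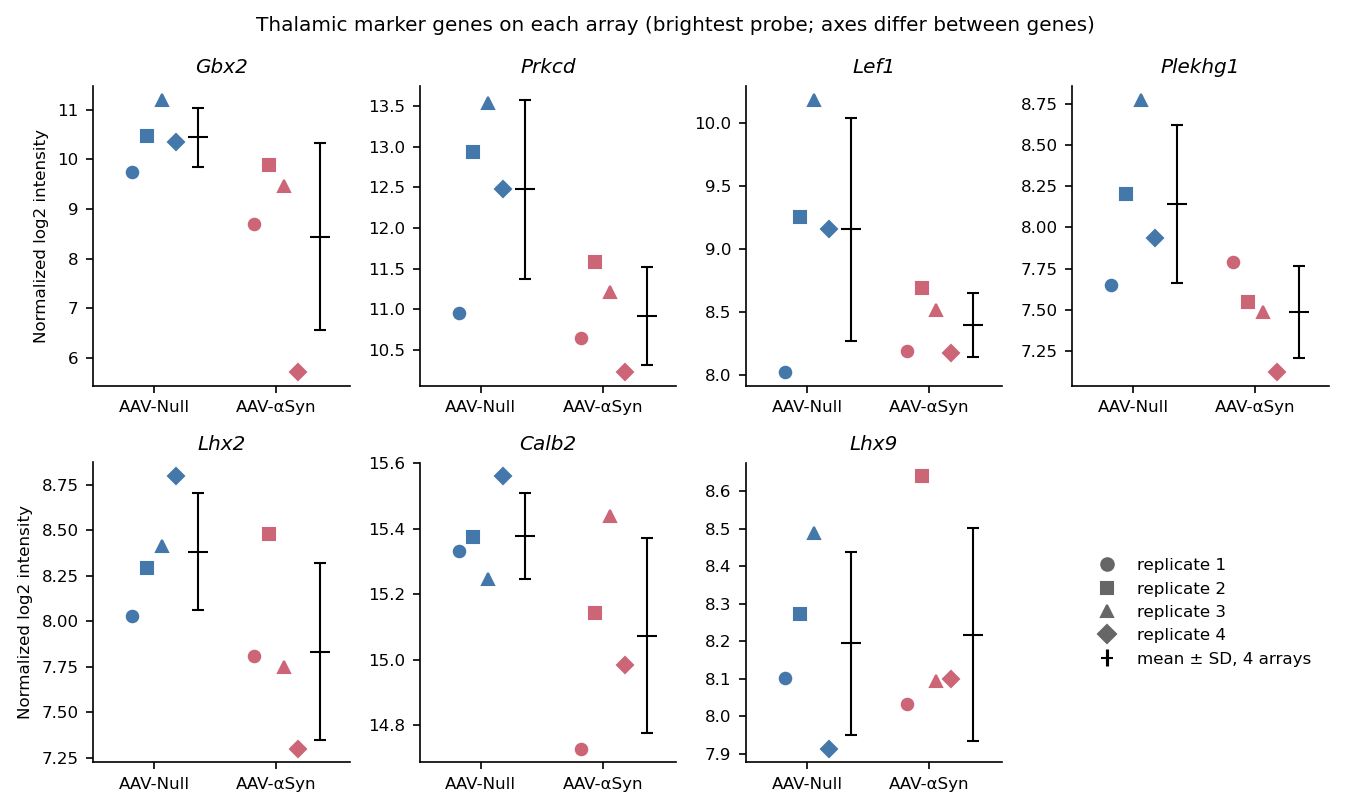
Normalized log2 intensity (y axis, a separate range for each gene) of the 7 members tested on the 4 AAV-Null and the 4 AAV-αSyn arrays (x axis). Each point is 1 array, its shape gives the replicate number, and the bar is the mean ± SD of 4 arrays. AAV-Null array 1 lies within or just below the AAV-αSyn arrays for *Prkcd*, *Lef1* and *Plekhg1*, and AAV-αSyn array 4 lies far below the others for *Gbx2*.

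Counted over the members, 3 of the 7 (*Prkcd*, *Plekhg1* and *Gbx2*) were lower with an unadjusted limma p under 0.05, and 0 were higher. Of all 33836 probes tested, 2.33% were lower and 3.31% were higher at this threshold. After the Benjamini–Hochberg adjustment limma called 0 of the 7 members, against 5 of all probes (0.0148%). The arrays of the groups did not overlap for 0 of the 7 members, while 1.26% of all probes were lower and 2.57% higher without overlap. The median log2 fold change of the 7 members was -0.66, against 0.01 over all probes tested, whose median absolute log2 fold change was 0.10. Members are genes of the same samples and no replicates, so the median carries no p.

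**Figure D2:**
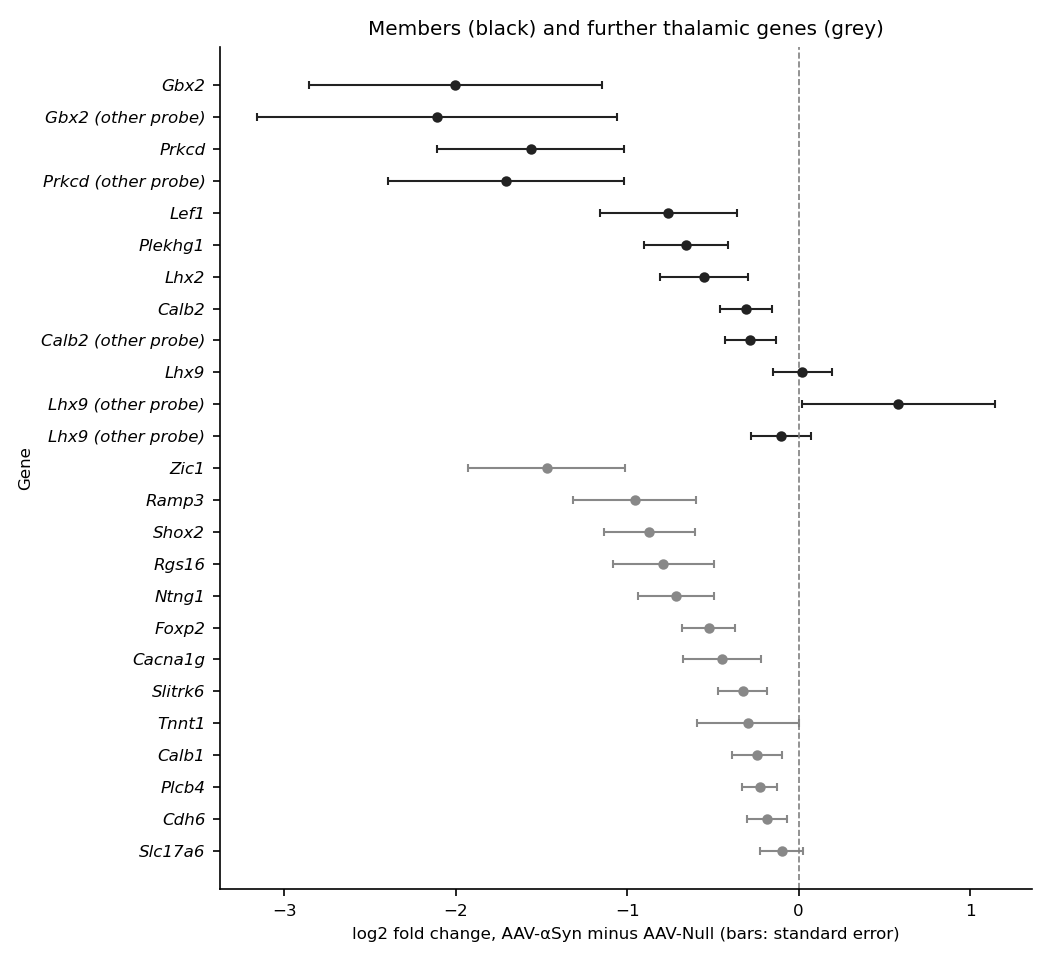
Log2 fold change of AAV-αSyn over AAV-Null (x axis, 0 marked by the dashed line) with its limma standard error for each probe of the 7 members tested (black) and for 13 further thalamic genes (grey). The members run from -2.11 for the dimmer *Gbx2* probe to 0.58 for a *Lhx9* probe, both partly at background. For the *Gbx2* probe this was on AAV-αSyn array 4. All 13 further genes lie below 0.

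The members varied widely between the arrays of a group. Among 29645 probes above background on all 8 arrays, the standard deviation within groups was at percentile 99.9 for *Gbx2*, 99.6 for *Prkcd*, 99.0 for *Lef1*, 94.8 for *Lhx2* and 93.9 for *Plekhg1*. It was at percentile 78.3 for *Lhx9* and 70.3 for *Calb2*. The arrays took nearly the same order in *Gbx2*, *Prkcd*, *Lef1* and *Plekhg1*: AAV-Null array 3 was the highest, AAV-Null array 2 the second and AAV-Null array 4 the third in each of these 4 genes. AAV-αSyn array 4 was the lowest of the 8 in *Gbx2*, *Prkcd*, *Plekhg1* and *Lhx2*. Expressed as deviation from each gene's own mean over the arrays, the median over the 7 members was -0.10, 0.39, 0.96 and 0.39 on AAV-Null arrays 1 to 4 and -0.50, -0.08, -0.26 and -0.69 on AAV-αSyn arrays 1 to 4. AAV-Null array 1 thus had a median just below that of AAV-αSyn array 2.

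**Figure D3:**
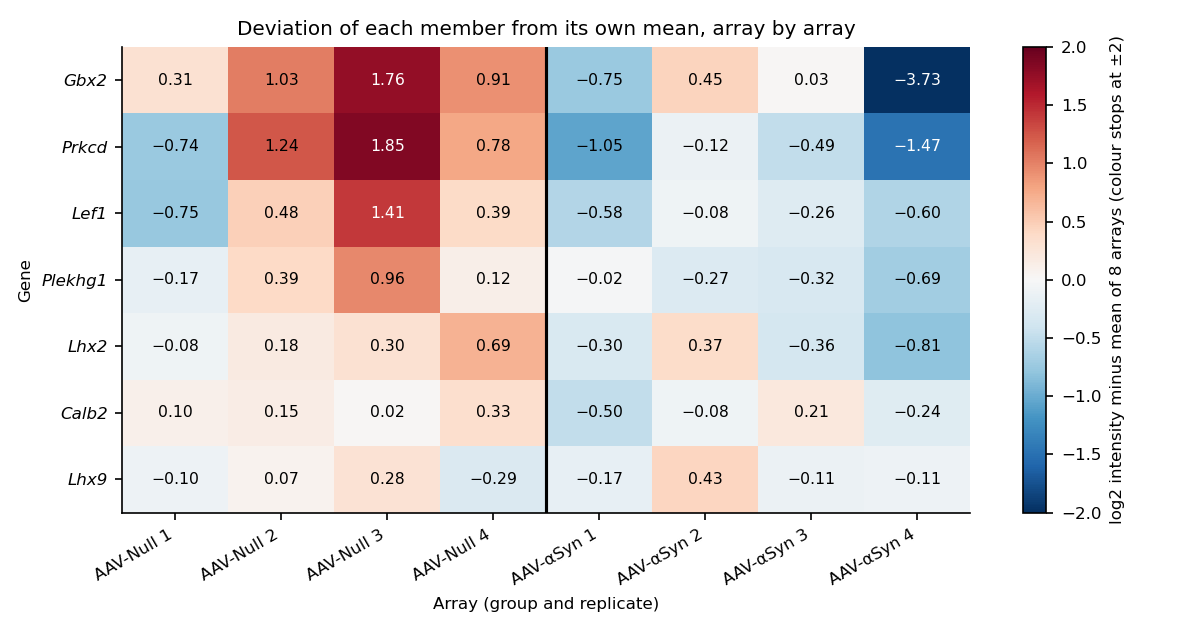
Deviation of the log2 intensity of each member (rows) on each array (columns, the 4 AAV-Null arrays left of the black line) from the gene's mean over 8 arrays, printed in the cell and coloured up to ±2. AAV-Null array 3 carries the highest values of the upper 4 genes, at 1.76 for *Gbx2* and 1.85 for *Prkcd*, and AAV-αSyn array 4 reaches -3.73 for *Gbx2*.

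After the mean of each group was taken out, the members with the most similar profiles over the 8 arrays were *Lef1* and *Prkcd* (Pearson's r 0.952). *Lef1* and *Plekhg1* followed with 0.819, *Prkcd* and *Plekhg1* with 0.798, and *Gbx2* and *Lhx2* with 0.732. The least similar pair was *Plekhg1* with *Calb2* at -0.303. These r describe 8 points that share their arrays and carry no p. Among 12589 genes above background on all arrays, those nearest to the mean profile of the members were *Slc39a11* (r 0.976), *Krtap4-9* (0.974), *Recql4* (0.968), *Zg16* (0.967) and *Slc13a2* (0.962), none of which is on any list used here. These r compare the arrays within groups only, and the log2 fold changes of the 5 genes between the groups ran from -0.31 to 0.33. The mean profile was not scaled, so the members with the widest spread within groups, *Gbx2* and *Prkcd*, weigh most in it. The 5 genes were picked as the highest of 12589 r over 8 arrays, and r picked in this way are high by selection.

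The dependence on single arrays was followed by leaving each out in turn. Without AAV-Null array 1, the groups no longer overlapped for 4 of the 7 members (*Gbx2*, *Prkcd*, *Lef1* and *Plekhg1*), where 3.48% of all 33719 probes were lower without overlap. The log2 fold change of *Prkcd* was then -2.07 with an unadjusted limma p of 0.000825, the lowest p of any member under any array left out, and an adjusted p of 0.370. Without AAV-Null array 3, or without AAV-Null array 2, limma called 0 of the 7 members at an unadjusted p under 0.05. *Prkcd* then stood at -1.21 and -1.41. Over all probes, limma called 2741 of 33660 in either direction without AAV-Null array 3 and 1520 of 33731 without AAV-Null array 2. With no array left out it called 1908 of 33836. The calls over all probes thus rose without AAV-Null array 3 and fell without AAV-Null array 2. Without AAV-αSyn array 4 only *Gbx2* was below this threshold among the members, where 1512 of 33473 probes were called. *Gbx2*, *Prkcd*, *Lef1*, *Plekhg1*, *Lhx2* and *Calb2* kept a value below 0 whichever array was left out, and *Lhx9* ran from -0.12 to 0.12.

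**Figure D4:**
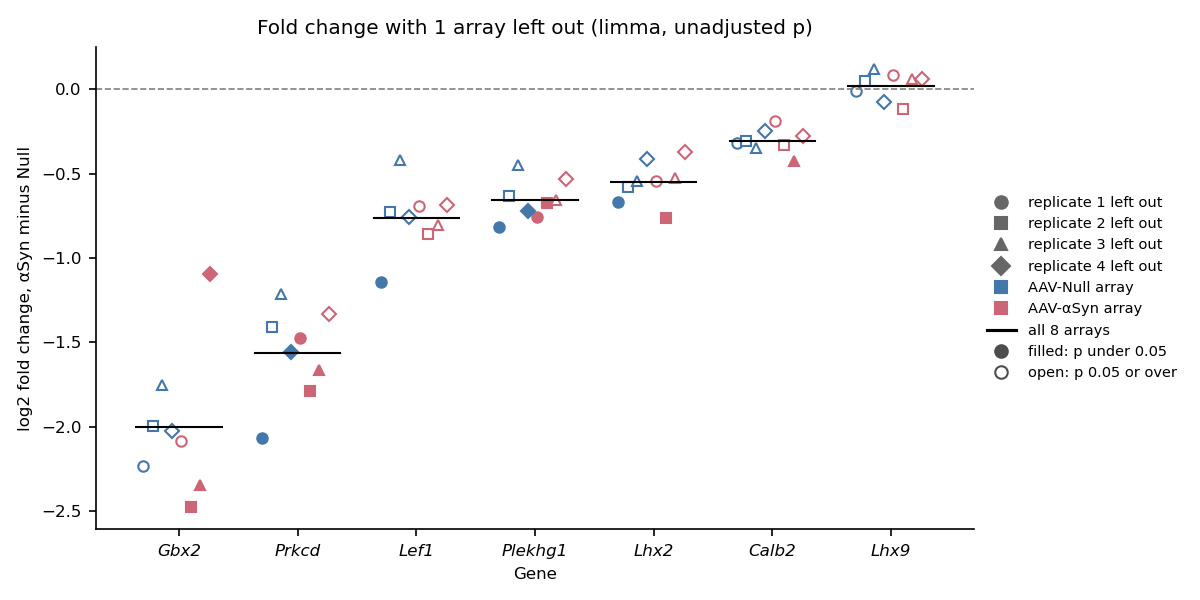
Log2 fold change of each member (x axis) with 1 array left out, by replicate number (shape) and group (colour), against the value on all 8 arrays (black line). Filled points have an unadjusted limma p under 0.05. The open points for *Prkcd* at -1.21, -1.41 and -1.33 are those without AAV-Null arrays 3 and 2 and AAV-αSyn array 4, and the filled *Gbx2* point at -1.09 is the one without AAV-αSyn array 4.

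A further list of thalamic genes, also chosen with earlier results of these data known, held 16 names, of which 13 were tested. All 13 were lower on average in AAV-αSyn, with a median log2 fold change of -0.45. An unadjusted limma p under 0.05 was found for 7, where 2.33% of all 33836 probes were lower at this threshold. None passed the adjustment, and 2 were without overlap between the groups, where 1.26% of all probes were lower without overlap. *Foxp2*, a forkhead transcription factor of thalamic neurons, had log2 intensities of 8.42, 8.29, 8.12 and 8.84 in AAV-Null and of 7.87, 7.98, 8.02 and 7.71 in AAV-αSyn, with a log2 fold change of -0.53 (SE 0.16, limma p 0.00989). *Shox2*, a homeodomain factor, had 9.03, 9.72, 10.09 and 9.36 against 8.28, 9.01, 9.02 and 8.40, with a log2 fold change of -0.87 (SE 0.27, limma p 0.0112). In both, every AAV-αSyn array lay below every AAV-Null array. AAV-Null array 3 was the highest array for *Shox2* and the lowest AAV-Null array for *Foxp2*. *Ntng1*, which encodes netrin-G1 of thalamic axons, was lower with an overlap of the groups (log2 fold change -0.72, SE 0.22, limma p 0.0116). With 1 array left out, all 13 stayed below 0 and between 4 and 8 had an unadjusted p under 0.05. The count was 8 without AAV-Null array 1, where limma called 2098 of 33719 probes in either direction. It was 4 without AAV-Null array 4 (2800 of 33796 probes) and without AAV-αSyn array 4 (1512 of 33473). Without AAV-Null array 1, 8 of the 13 were without overlap, where 3.48% of all probes were lower without overlap.

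The members' neighbours in the pathways were mixed. In this and the following lists, counts and medians cover the genes well above background on all 8 arrays, since a gene that was so in 1 group only entered the test through that group. Of 13 such genes of the Wnt/β-catenin pathway, 6 were lower and 7 higher, with a median log2 fold change of 0.03. *Nkd1*, an antagonist of the pathway, and *Tcf7l1*, a TCF/LEF relative, were at 0.29 and 0.33 with an unadjusted limma p under 0.05, and neither passed the adjustment. *Sp5*, a target of the pathway, was well above background on 4 AAV-Null arrays and 1 AAV-αSyn array. Of 8 partners and relatives of the LIM-homeodomain proteins, 5 were lower and 3 higher, with a median of -0.02, and *Lhx5* at 0.33 had an unadjusted limma p under 0.05.

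Genes of the regions around the SN were read on the same arrays. All 4 prethalamic and zona incerta genes were lower, with a median log2 fold change of -0.44, and all 3 subthalamic and mammillary genes were lower, with a median of -0.48, and limma gave 0 of either list an unadjusted p under 0.05. *Dlx1* and *Dlx5*, prethalamic genes well above background on 3 AAV-Null arrays and 1 AAV-αSyn array each, are not in these counts, and with them the prethalamic median was -1.07. The 3 habenular genes had a median of -0.10, and *Chrna3*, a nicotinic receptor subunit, was lower without overlap (log2 fold change -0.77, SE 0.20, limma p 0.0047), while *Chrnb4* and *Tac3* were at -0.06 and -0.10 with unadjusted limma p of 0.615 and 0.881. Of 3 tectal and pretectal genes 2 were higher, and *Pax7* was well above background on 1 AAV-Null array and 4 AAV-αSyn arrays.

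The 4 raphe and hindbrain genes above background on all arrays were higher in AAV-αSyn, with a median log2 fold change of 1.79, and 3 had an unadjusted limma p under 0.05. *Slc6a5*, a glycine transporter, was at 1.28 and passed the adjustment (limma adjusted p 0.0424), but did not pass with the replicate number, which is the row of the slide, as a block (limma adjusted p 0.396). The call was also lost with cyclic loess, without the filter on dim probes, with the deposited matrix, with the side of the slide as a block, and without any 1 array other than AAV-αSyn array 2. Its log2 fold change stayed between 1.05 and 1.34 under all alternatives, with adjusted p from 0.00845 to 0.396. *Tph2*, the enzyme of serotonin synthesis in the raphe, had log2 intensities of 8.32, 8.12, 10.61 and 8.99 in AAV-Null and of 11.16, 11.51, 10.59 and 12.20 in AAV-αSyn. AAV-Null array 3, the highest for *Gbx2*, *Prkcd*, *Lef1* and *Plekhg1*, was also the highest AAV-Null array for *Tph2*. The log2 of the summed intensity of the 4 genes, a sum that follows the brightest probes of a list, ran from 9.74 to 11.43 in AAV-Null and from 11.38 to 12.64 in AAV-αSyn. *Hoxa2*, above background on 3 AAV-Null and 4 AAV-αSyn arrays, was at 0.86. *Dbh* and *Hoxb3* were above background on 3 and 2 AAV-αSyn arrays and on 0 AAV-Null arrays. The part of these regional genes in the members' differences was not tested.

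The 9 midbrain dopaminergic genes were all lower in AAV-αSyn, with a median log2 fold change of -0.38 and 5 with an unadjusted limma p under 0.05. *Th* was at -0.52 (SE 0.10, limma p 0.000604), and *Foxa1* and *Pitx3*, transcription factors of dopaminergic neurons, were at -0.66 and -0.78. The log2 of their summed intensity ran from 17.23 to 17.58 in AAV-Null and from 16.87 to 16.99 in AAV-αSyn. AAV-Null array 1, low for *Prkcd* and *Lef1*, was the highest array for *Th* at 16.70.

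Lists for other cell types and regions had medians nearer to 0. The median log2 fold change was 0.05 over 9 myelin genes, 0.07 over 6 endothelial genes, -0.11 over 6 smooth muscle genes, 0.06 over 4 choroid plexus genes, 0.06 over 3 cortical and hippocampal genes and 0.07 over 2 cerebellar genes. Of these, *Emx2* at -0.31 had an unadjusted limma p under 0.05. Among these 4 choroid plexus genes *Ttr*, which encodes the transthyretin made by this epithelium, was high on AAV-αSyn array 2, at 12.33 against 6.64 to 8.91 on the other arrays, and *Folr1*, *Kcne2* and *Prlr* were within their range there. The log2 of their summed intensity ran from 8.89 to 9.92 in AAV-Null and from 9.04 to 12.46 in AAV-αSyn. *Kl*, a choroid plexus gene above background on 0 AAV-Null and 2 AAV-αSyn arrays, is not in these counts. Its log2 intensity was 3.905 on AAV-αSyn array 2 and between 2.72 and 3.48 on the other arrays. Without AAV-αSyn array 2, *Gbx2* was at -2.48 and *Prkcd* at -1.79. The part of other cell types in the members' differences was not tested.

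**Figure D5:**
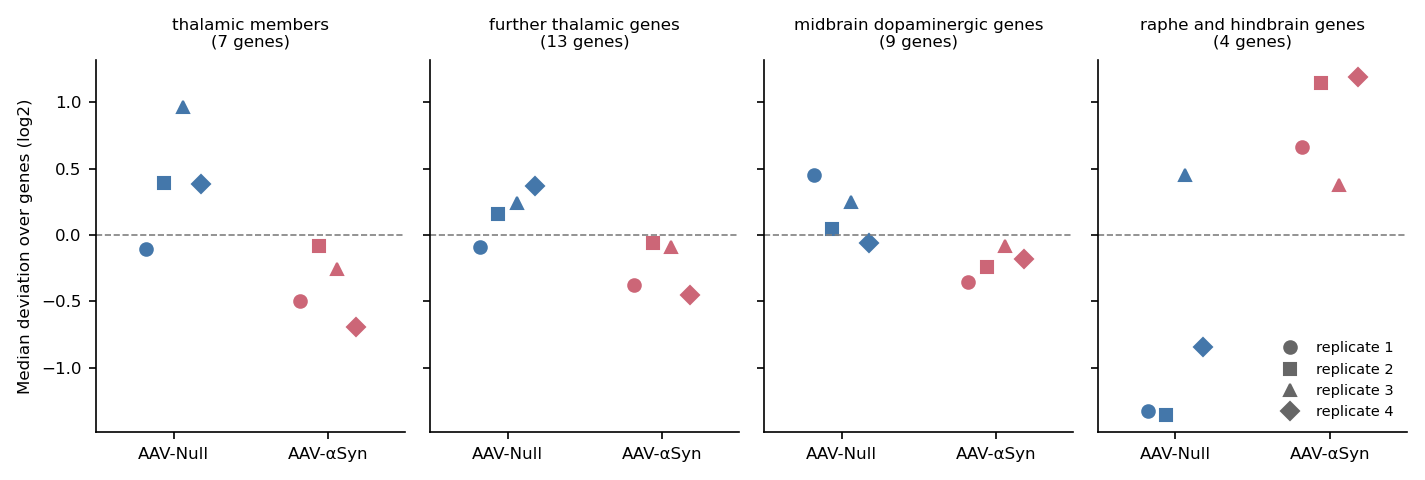
Median over the genes of a list of the deviation from each gene's mean over 8 arrays (y axis, log2) on the AAV-Null and the AAV-αSyn arrays (x axis), for the 7 members, 13 further thalamic, 9 midbrain dopaminergic and 4 raphe and hindbrain genes. Each point is 1 array. AAV-Null array 1 is the lowest AAV-Null array for both thalamic lists, at -0.10 and -0.09, and the highest array for the dopaminergic genes, and AAV-Null array 3 lies apart from the other AAV-Null arrays for the raphe and hindbrain genes, at 0.45.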

How the data were processed

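RNA of 8 SN samples, 4 per group, was read on 1-colour Agilent SurePrint G3 Rat arrays on 1 slide. The authors deposited each spot's background-corrected intensity with the flags of Feature Extraction (12.0.3.2 in the headers, 11.5.1.1 in the methods and in the submitters' processing notes) and a matrix of quantile-normalized log2 values. Here, control spots (4259 features) and outlier spots were left out, and probes above background (at least 0.5 of their spots called well above it) on at least 1 array were kept. Log2 intensities were quantile normalized, and spots of one probe were averaged. Between 74.8% and 77.5% of the spots were well above background and none was saturated, and the number of arrays limits the precision.

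Groups were compared with limma 3.58.1 in R 4.3.3 (lmFit and eBayes, two-sided), adjusting by Benjamini–Hochberg over 33836 probes, with 0.05 as the threshold, and by the exact permutation test over the 70 splits of the arrays. The script was tested on simulated data. A gene is represented by its brightest probe, and all probes of the members are given. Names came from RefSeq (GRCr8), which named 21229 of 45598 probes. From other lists, at most 3 genes each are named, without overlap or with an unadjusted p under 0.05, in order of p, and *Dlx1*, *Dlx5*, *Chrnb4*, *Tac3*, *Dbh*, *Hoxb3* and the choroid plexus genes were named after their values were seen. A gene that this rule selects is not reported here. The 5 genes nearest in pattern are those with the highest r, and nearness to *Tcf7l2* was not run. The members and lists were chosen with earlier results of these data known. Alternatives were 75th percentile scaling, cyclic loess, normexp (offset 50), other filters, the deposited matrix, an intensity trend, array weights, the replicate number or the side of the slide as a block, other probes, and each array left out.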

Additional observations from a re-analysis of the deposited data

Results flagged for a closer look

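Of 56 groups of 4 arrays examined, 2 held an array set apart from the rest by its gap (Dixon's test at the 95% level), where chance gives 2.8. For *Lhx9* (A_64_P026447) in AAV-αSyn, replicate 2 stood at a log2 intensity of 8.64 and the others between 8.03 and 8.10, a gap of 0.891 of the range. For the partners and relatives of the LIM-homeodomain proteins (all 9 tested) in AAV-Null, the median deviation was -0.12 on replicate 1 and between 0.065 and 0.096 on the others, a gap of 0.859 of the range.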

How the results depend on the processing

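The number of members with an unadjusted p under 0.05 was 3, where 1908 of 33836 probes were called. It became 5 with an intensity trend in eBayes, where 1825 of 33836 probes were called. It was 2 without the filter on dim probes (2573 of 45581 probes) and 2 with the side of the slide as a block (1745 of 33836). With 1 array left out it ran from 0 to 4, and the calls over all probes from 1439 to 2800. The number of members without overlap was 0 and ran from 0 to 4. No member passed the adjustment under any alternative, limma's adjusted p running upward from 0.141, that of *Plekhg1* with array weights. The median of the members ran from -0.82 to -0.45 with 1 array left out and stayed within the spread between replicates. *Gbx2* lost its unadjusted call, at a log2 fold change still between -2.23 and -1.75, without the filter on dim probes, with array weights, with the side of the slide as a block and without any of the AAV-Null arrays or AAV-αSyn array 1, whereas *Prkcd* and *Plekhg1* kept theirs in all 11 processing alternatives. *Prkcd* lost its call without AAV-Null array 2 or 3 or AAV-αSyn array 4, at a log2 fold change between -1.41 and -1.21. *Plekhg1* lost its call without these or AAV-αSyn array 3, at a log2 fold change between -0.66 and -0.45. *Lhx9* turned to -0.10 with probe A_44_P1111978 and ran from -0.12 to 0.12 with 1 array left out. The causes were not tested.

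Over all probes, the unadjusted calls went from 1908 to 5759 with array weights, and the adjusted calls from 5 to 12. The replicate numbers mark no pairing that the labels state. After the mean of each group was taken out of every probe, same-numbered arrays correlated at 0.144, 0.267, 0.041 and -0.002. In these values AAV-αSyn arrays 1 and 2 were nearest to the AAV-Null array of their own number. AAV-αSyn arrays 3 and 4 were nearest to AAV-Null arrays 1 and 2. With the replicate block, 3 members had an unadjusted p under 0.05, *Prkcd* at -1.56 among them, and 0 of all probes passed the adjustment, with 2218 at an unadjusted p under 0.05.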
